A study of Homo sapiens with 6 samples.

Results

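The insulin-like growth factor (IGF) binding proteins were described together with the ligand gene IGF1 and the clearance receptor gene IGF2R in A204, an established human rhabdoid tumour cell line. The genes were chosen by name: IGFBP1 to IGFBP7, the related gene IGFBPL1, IGF1 and IGF2R, 10 in all. A gene was represented by the probe set annotated to it alone with the highest mean over all 6 arrays, which gave values for 9 of the 10 genes, among 18417 genes measured in all. Each of the 9 had a single such probe set. The only probe set for IGFBP6 was annotated to 2 genes, IGFBP6 and C12orf57, so IGFBP6 was not tested. Total RNA was hybridised to Affymetrix whole-transcript arrays, 3 from cells given SAHA for 12 h and 3 from control cells. SAHA (vorinostat) inhibits histone deacetylases, the enzymes that remove acetyl groups from histones and other proteins. All cells were cultured in medium with 10% fetal bovine serum. The controls received the solvent DMSO in the treatment protocol, whereas another label lists no treatment for them. The labels give the SAHA dose as 10 with an incomplete unit. Whether arrays of the same group stem from separate cultures is not stated, so the p-values describe array-to-array spread that could be purely technical. The small number of arrays limits the precision.

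IGF1 and IGF2 are secreted growth factors that act through the receptor tyrosine kinase IGF1R, which signals through insulin receptor substrates to PI3K and AKT. The high-affinity IGF binding proteins hold IGFs in serum and tissue, and either withhold them from the receptor or release them near it after cleavage by proteases such as PAPP-A. Several also act without IGFs, at integrins, in the matrix or in the nucleus. IGF2R, the cation-independent mannose 6-phosphate receptor, does not signal like IGF1R: it carries IGF2 and lysosomal enzymes to the lysosome. Serum itself holds IGFs and binding proteins, and the arrays measured transcripts only.

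Of the 9 measured genes, 4 rose after SAHA, 4 fell and 1 did not pass the test. IGF2R and IGFBP3 rose most, by 1.76-fold and 1.74-fold, followed by IGFBP2 and IGFBP5. IGFBP7 fell most, by 1.99-fold, followed by IGFBP4, IGFBPL1 and IGFBP1. IGF1 did not pass. A call means an adjusted p under 0.05 in limma, a linear model with moderated variance, with Benjamini-Hochberg adjustment over all 18417 genes. By that rule 60% of all genes were called, 31.1% as higher and 28.9% as lower in SAHA, so a call was the usual outcome on these arrays. With each array centred on the median level of 8 housekeeping genes, 4794 genes were called higher and 6893 lower. The analysis used here gave 5735 and 5314. In it 1 of the 8 housekeeping genes rose and 2 fell, with a median difference of -0.0045, so they were not a fixed reference. None of the 9 genes changed by 2-fold or more, compared with 2073 of all 18417 genes. IGFBP7 lay just under this limit at 1.99-fold, and only 11.4% of all genes differed by more than it. With 9 genes, a count of 0 therefore does not set the group apart from all genes. The median difference of the 9 genes was 0.07 on the log2 scale, beside -0.003 over all genes. The SAHA and control values did not overlap for 8 of the 9 genes, and for 65.4% of all genes. In RNA from whole cultures, a change in the make-up of the cells and a change of RNA per cell cannot be told apart.

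**Figure D1:**
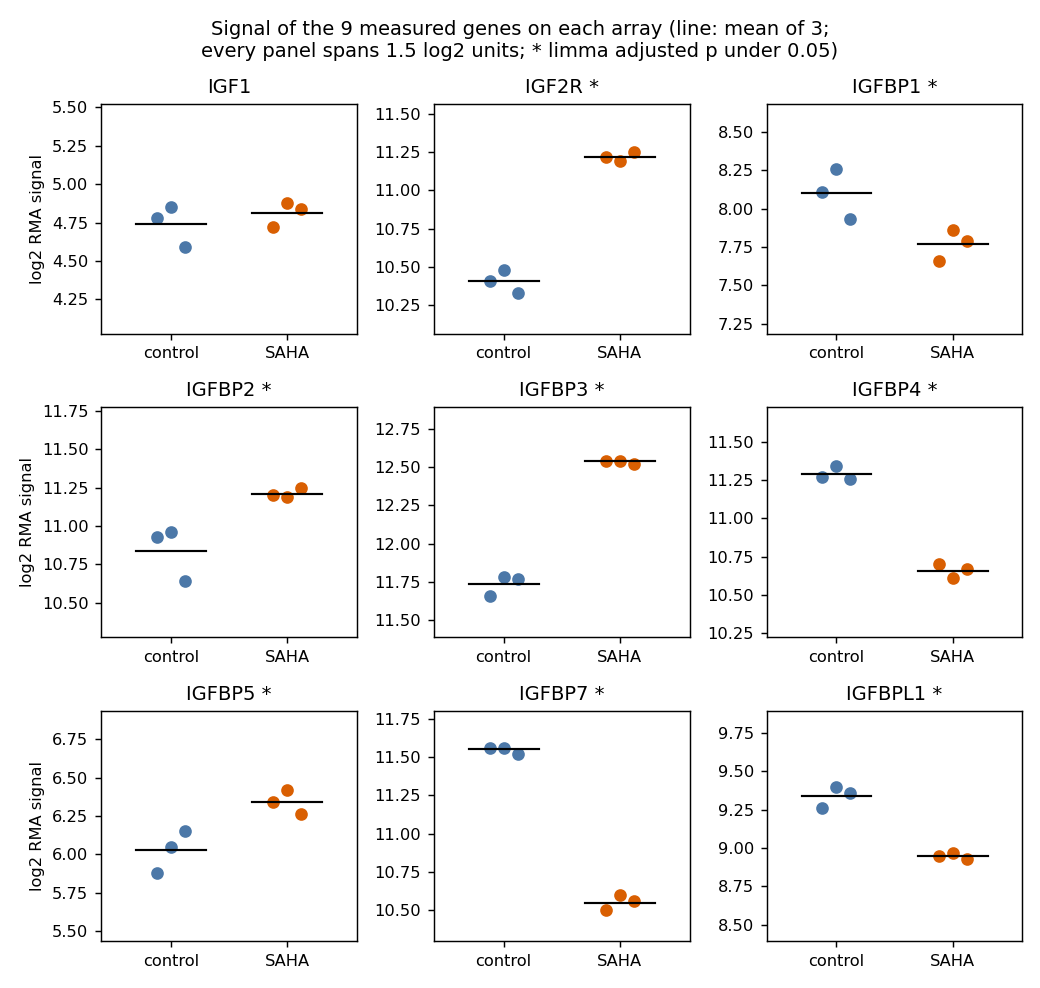
Signal of the 9 measured genes, 1 panel per gene, as log2 RMA signal on each of the 3 control and 3 SAHA arrays, with a line at each group mean; every panel spans the same range of log2 units. The SAHA points lie apart from the control points in every panel but that of IGF1.

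**Figure D2:**
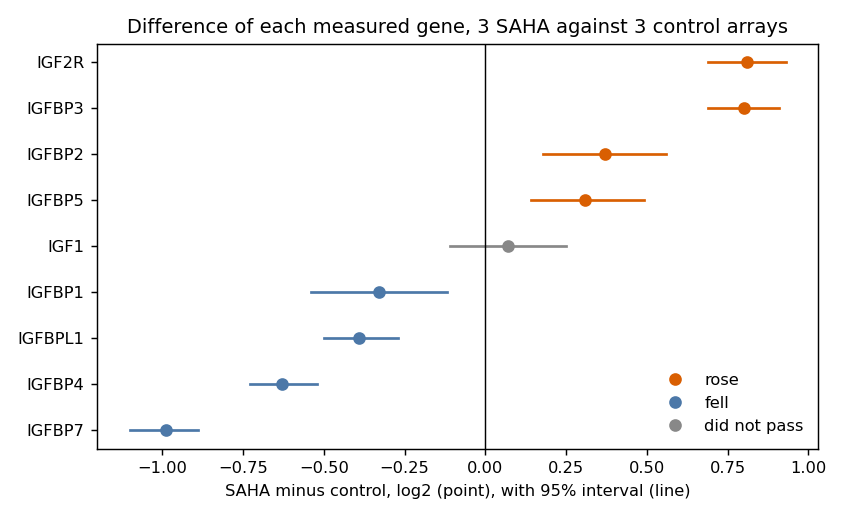
Difference between SAHA and control for each measured gene in log2 units, with its 95% interval, ordered by size. The intervals of IGF2R and IGFBP3 lie near 0.8, that of IGFBP7 lies near -1, and only that of IGF1 includes 0.

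Array medians ran from 142 to 149 in linear signal units. The log2 values of 33252 probe sets correlated at 0.9965 to 0.998 within groups and at 0.9728 to 0.9738 between groups (Pearson, across probe sets, which are not independent replicates). Among features of rhabdoid tumours, the intermediate filament genes VIM, KRT8 and KRT18 had log2 levels of 12.81, 13.55 and 13.54 in control, and MUC1, the epithelial membrane antigen gene, was at 7.80. Of the 7 genes of this list 1 rose and 5 fell, none by 2-fold. SMARCB1, the subunit whose loss is typical of this tumour, had levels of 7.74 without and 7.22 with SAHA. Of 9 hepatocyte genes, a cell type known for IGF1 and IGFBP1, 1 rose and 3 fell, and their summed linear signal was 567 to 575 in control and 673 to 703 in SAHA. CPS1, a urea cycle enzyme gene, was the member that rose, from 6.55 to 7.94, and APOA1, APOB and TTR fell. The albumin gene ALB was at 4.56 in control and 4.47 in SAHA (adjusted p = 0.2). Of 9 endothelial genes 3 rose and 3 fell. Their summed signal dropped from between 7287 and 7542 to between 2136 and 2249, mostly through CDH5, which fell by 2.19. Blood cell genes (1 of 8 rose, 2 fell) summed to between 1344 and 1540 in control and between 2078 and 2124 in SAHA. The macrophage-lineage gene CD68 was the member that rose, from 9.09 to 10.63, while CSF1R fell 3.09-fold and the leukocyte gene PTPRC was at 4.08 in SAHA (adjusted p = 0.662). Skeletal muscle genes (2 of 11 rose, 2 fell) summed to between 1691 and 1719 in control and between 1431 and 1447 in SAHA. The part of these markers in the results below was not tested. No array file gave a detection call, so no gene can be called present or absent.

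The sequences just before the start sites of 4 of the genes with clear changes are shown because they differ in the short motifs they hold. They are the 250 bases before the annotated start, from RefSeq on build GRCh38.p14, where 8 of the 10 genes were matched. IGF2R is at chr6:159968832-159969081 (plus strand), IGFBP3 at chr7:45921273-45921522 (minus strand), IGFBP4 at chr17:40443200-40443449 (plus strand) and IGFBPL1 at chr9:38424455-38424704 (minus strand). Each is written 5′ to 3′ on the strand of its gene. Capitals mark the GC box GGGCGG or its reverse complement CCGCCC, the E-box CACGTG, and the TATA sequences TATAAA, its reverse complement TTTATA, and TATATA.
IGF2R: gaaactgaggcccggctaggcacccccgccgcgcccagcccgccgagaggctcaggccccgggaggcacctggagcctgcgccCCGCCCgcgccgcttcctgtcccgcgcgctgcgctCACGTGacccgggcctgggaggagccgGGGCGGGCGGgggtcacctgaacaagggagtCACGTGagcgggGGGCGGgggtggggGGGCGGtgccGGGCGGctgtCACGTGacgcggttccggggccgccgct
IGFBP3: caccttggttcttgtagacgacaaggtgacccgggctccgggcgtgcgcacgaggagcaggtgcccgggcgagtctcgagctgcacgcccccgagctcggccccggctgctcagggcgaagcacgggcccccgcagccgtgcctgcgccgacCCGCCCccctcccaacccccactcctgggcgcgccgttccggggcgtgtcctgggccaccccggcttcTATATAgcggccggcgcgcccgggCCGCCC
IGFBP4: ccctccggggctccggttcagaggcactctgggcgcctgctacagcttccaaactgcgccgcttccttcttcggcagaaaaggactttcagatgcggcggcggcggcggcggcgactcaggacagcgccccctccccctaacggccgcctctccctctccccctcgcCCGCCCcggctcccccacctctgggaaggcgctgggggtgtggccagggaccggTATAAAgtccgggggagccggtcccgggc
IGFBPL1: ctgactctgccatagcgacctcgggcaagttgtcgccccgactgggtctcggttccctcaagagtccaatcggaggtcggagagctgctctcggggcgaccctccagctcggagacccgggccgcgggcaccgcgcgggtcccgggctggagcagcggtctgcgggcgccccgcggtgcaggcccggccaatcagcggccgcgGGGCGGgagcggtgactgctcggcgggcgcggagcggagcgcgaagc
The IGF2R window held 3 copies of CACGTG, starting 132, 74 and 28 bases before the start site, which 0.0797% of 35116 RefSeq windows of this length matched or exceeded. It also held 6 GC boxes, of which the pair starting 105 and 101 bases before the start site overlap each other. At least 3 GC boxes were present in 13.9% of all windows. IGFBP3 had TATATA starting 30 bases and IGFBP4 had TATAAA starting 29 bases before the start site, and 12.8% of all windows held any of the TATA sequences. A TATA sequence at nearly the same place stood before IGFBP3, which rose, and IGFBP4, which fell. Whether any motif goes with the direction of change was not tested. IGFBP3 held 2 GC boxes and IGFBP4 and IGFBPL1 held 1 each, while 42.6% of all windows held at least 1. These windows are rich in CpG, with 33 in IGF2R, 32 in IGFBP3, 24 in IGFBP4 and 35 in IGFBPL1, where the median window had 11. IGF1, which had no call, had 2 windows without a GC box (0 and 1 CpG). The window of IGFBP5, which rose, held no GC box either (8 CpG). For IGFBP2, which also rose, a window with 4 CpG held none, while its other windows held 1 each (7 and 22 CpG). IGFBP1 and IGFBP7 had no matched window. A match of letters is a description of the sequence and does not show a bound factor.

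IGF1 was the ligand gene of the group. Its log2 signal was 4.78, 4.85 and 4.59 on the control arrays and 4.72, 4.88 and 4.84 on the SAHA arrays. The groups overlapped, with the third control array lowest. The difference was 0.07 with a 95% interval from -0.11 to 0.25 (adjusted p = 0.469). Its sign turned to -0.01 without control replicate 3, and also to -0.01 with the arrays centred on housekeeping genes. Whether this low signal comes from the IGF1 transcript or from background is not settled.

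IGF2R, the receptor that removes IGF2, rose. It was at 10.41, 10.48 and 10.33 in control and at 11.22, 11.19 and 11.25 in SAHA. The groups were separated by 0.71 log2 units, several times the range of either group. The difference was 0.81 (SE 0.051, adjusted p = 3.03e-06), and 15.7% of all genes had a larger difference in either direction.

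IGFBP3 encodes the main IGF carrier of serum, which forms a ternary complex with IGF and the acid-labile subunit and is also known as a growth-restraining protein. Its log2 signal was 11.66, 11.78 and 11.77 in control and 12.54, 12.54 and 12.52 in SAHA. All SAHA arrays were higher by at least 0.74. The mean went from 11.74 ± 0.07 to 12.54 ± 0.02 (SD, n = 3), a difference of 0.80 (SE 0.048, adjusted p = 2.22e-06).

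IGFBP7 encodes a secreted matrix protein, also called IGFBP-related protein or angiomodulin, that binds IGFs weakly and is known as a marker of senescence and of vessels. It stood at 11.56, 11.56 and 11.52 in control and at 10.50, 10.60 and 10.56 in SAHA. This was the widest separation in the group, with 0.92 log2 units between the lowest control and the highest SAHA array. The difference was -0.99 (SE 0.045, adjusted p = 5.14e-07), and 11.4% of all genes differed by more.

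IGFBP4, a binding protein that inhibits IGF action until PAPP-A cleaves it, fell as well. The values were 11.27, 11.34 and 11.26 in control against 10.70, 10.61 and 10.67 in SAHA. The groups did not overlap, and the mean went from 11.29 ± 0.05 to 10.66 ± 0.04 (SD, n = 3). The difference of -0.63 corresponds to a 1.54-fold fall (adjusted p = 7.86e-06).

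IGFBPL1, a less studied relative with an IGFBP-type domain, was at 9.26, 9.40 and 9.36 in control and at 8.95, 8.97 and 8.93 in SAHA. Every SAHA array was below every control array, by at least 0.29. It fell by 0.39 (95% interval -0.50 to -0.27, adjusted p = 0.000203).

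IGFBP2 encodes a binding protein of fetal tissue and of many tumours, with an integrin-binding site. Its values were 10.93, 10.96 and 10.64 in control and 11.20, 11.19 and 11.25 in SAHA. The third control array was lower than the other two, and the SAHA arrays lay close together. The difference was 0.37 (95% interval 0.18 to 0.56, adjusted p = 0.00502), and it was 0.27 without control replicate 3 (adjusted p = 0.00183).

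IGFBP1, an insulin-repressed and FOXO-induced protein known mainly from liver and decidua, was at 8.11, 8.26 and 7.93 in control and at 7.66, 7.86 and 7.79 in SAHA. The groups were only 0.07 apart, less than the range of either. The difference was -0.33 (SE 0.089, adjusted p = 0.0122), a call that ended in the ordinary unmoderated model (adjusted p = 0.0706). IGFBP5, a binding protein of bone and muscle that also binds matrix, was at 5.88, 6.05 and 6.15 in control and at 6.34, 6.42 and 6.26 in SAHA. Its groups were 0.11 apart. The difference was 0.31 (SE 0.075, adjusted p = 0.0071), but 0.19 after a further quantile normalization (adjusted p = 0.0555), which ended the call.

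The shared probe set of IGFBP6 and C12orf57 gave 8.05, 8.03 and 8.35 in control and 8.09, 8.07 and 8.09 in SAHA. The groups overlapped, and the signal cannot be divided between both genes.

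Some binding protein genes lie in pairs on a chromosome, and neighbours did not always move alike. Between a gene and its nearest measured neighbour lay 0 to 22 entries of the RefSeq gene table that were not measured here. IGFBP1 and IGFBP3 are adjacent on chromosome 7, and IGFBP1 fell while IGFBP3 rose. Next to them, TNS3, a tensin gene, fell from 11.25 ± 0.05 to 9.43 ± 0.03 (SD, n = 3), with 17 unmeasured entries of the gene table in between. IGFBP2 and IGFBP5, adjacent on chromosome 2, both rose, by 0.37 and 0.31, whereas RPL37A, a ribosomal protein gene on the other side of IGFBP2, fell by 0.51. IGFBP4 lies between TOP2A, the proliferation-linked topoisomerase (-2.41), and TNS4 (-0.37), and all 3 fell. The tensins, adaptor proteins at integrins, neighbour several IGFBP genes. Of the 4 tensin genes 3 fell and TNS1 rose by 0.25 (0.14 after a further quantile normalization), and TNS2, near IGFBP6, changed by -0.66.

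IGFBPL1 had 2 neighbours that fell, ALDH1B1 (-0.32), a mitochondrial aldehyde dehydrogenase gene, and ANKRD18A (-1.32). IGFBP7 had POLR2B, an RNA polymerase II subunit gene, which rose by 0.24, and ADGRL3, a latrophilin gene, at -0.34 (adjusted p = 0.0679). ADGRL3 was called lower in 6 of its alternatives, such as quantile normalization (-0.46, adjusted p = 0.0201) and without control replicate 1 (-0.48, adjusted p = 0.0106), and was at -0.17 without control replicate 3 (adjusted p = 0.103). IGF2R was followed by the pseudogene CHP1P2, which rose by 0.67 and could share signal with copies of CHP1, while MAS1 on its other side was at 0.04 (adjusted p = 0.502). The sign for MAS1 turned to -0.03 with housekeeping centring. Of the genes beside IGF1, PMCH fell by 0.27 and C12orf42 was at -0.01 (adjusted p = 0.947). ADCY1, an adenylate cyclase gene beside IGFBP1, fell by 0.55. TNP1, beside IGFBP5, was at -0.01 (adjusted p = 0.941). SPRYD3 and SOAT2, which flank IGFBP6, were at -0.07 and 0.09 (adjusted p = 0.228 and 0.287). With housekeeping centring SPRYD3 was called lower (-0.15, adjusted p = 0.032), and with quantile normalization its sign turned to 0.01 and that of SOAT2 to -0.03.

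**Figure D3:**
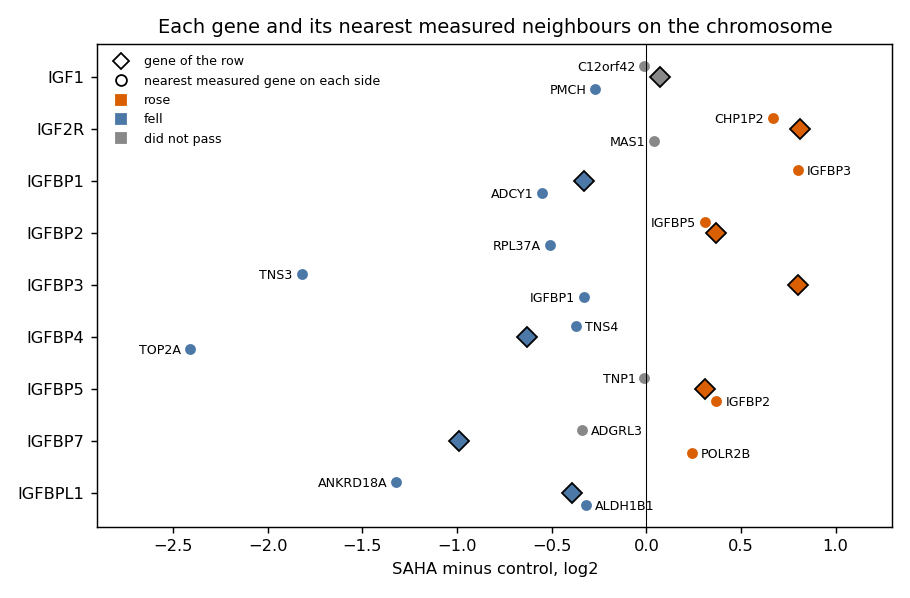
Difference between SAHA and control in log2 units for each measured gene (diamond) and for the nearest measured gene on each side of it in the RefSeq gene order (circles), coloured by the call. IGFBP1 and IGFBP3 lie on opposite sides of 0, whereas IGFBP2 and IGFBP5 both lie above it.

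Among the receptors, IGF1R, which carries the IGF signal, rose from 11.10 ± 0.05 to 11.51 ± 0.03 (SD, n = 3), and INSR, the insulin receptor gene, fell from 8.67 ± 0.06 to 8.31 ± 0.05. A second probe set of IGF1R had means of 8.02 without and 8.16 with SAHA, and this difference of 0.14 did not pass over all probe sets (adjusted p = 0.0722). The mean of both gave 0.27 (adjusted p = 0.00155). INSRR, the insulin receptor-related gene, was at 0.05 (adjusted p = 0.477), and its sign turned under quantile normalization (-0.07), cyclic loess (-0.0042) and housekeeping centring (-0.03). Of 7 measured relaxin and insulin-like ligand genes outside the group, 2 rose and 5 had no call (median -0.01). IGF2 and the insulin gene were not among these 7 genes. Those that rose were RLN2, a relaxin gene, by 0.88 (from 4.53 to 5.41), and INSL3, a testis hormone gene, by 0.29. The control level of RLN2 was as low as that of IGF1 (4.74), so whether that signal is transcript or background is not settled either. RLN1, a close copy of RLN2 that could share its probes, was at 0.24 (adjusted p = 0.0712). Leaving out SAHA replicate 3 brought it past the threshold (0.31, adjusted p = 0.0439), whereas it was at 0.15 without control replicate 3 and at 0.15 without SAHA replicate 1. With housekeeping centring, 2 of these ligand genes were called lower.

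Receptor substrates and adaptors had 10 genes higher, 5 lower and 4 without a call out of 19, with a median of 0.22. PTPN1, the phosphatase PTP1B that dephosphorylates the insulin and IGF1 receptors, rose 3.07-fold, from 10.40 ± 0.06 to 12.02 ± 0.02 (SD, n = 3). GRB2, the adaptor that links receptors to RAS, rose by 0.99, and SOS2, an exchange factor recruited by GRB2, fell by 1.18. IRS1 and IRS2, the main docking proteins of IGF1R, rose by 0.86 and 0.67 (both chosen for mention once their values were known). Further downstream, 12 of 22 genes of PI3K, AKT, TSC and FOXO rose and 3 fell, with a median of 0.22. With housekeeping centring 6 of them were called lower. The FOXO factor gene FOXO4 rose 1.99-fold, PDPK1, the kinase that activates AKT, by 0.69 on the log2 scale and the kinase gene SGK1 by 0.56.

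The proteases that cleave IGF binding proteins and their inhibitors had 10 genes higher and 7 lower of 24, with a median of 0.11. MMP1, the interstitial collagenase, rose by 5.10 and TIMP1, an inhibitor of metalloproteinases, by 1.80. STC2, an inhibitor of PAPP-A, fell from 8.93 ± 0.08 to 7.83 ± 0.02 (SD, n = 3). The related inhibitor gene STC1 rose by 2.15, from 9.11 to 11.25, and PAPPA itself fell by 0.89 (adjusted p = 1.61e-05 and 0.000268), so the stanniocalcins moved in opposite directions. These 2 genes were picked for mention once their values were known. IGFALS, the acid-labile subunit that completes the complex with IGFBP3, was at 7.74 in control and 7.79 in SAHA (adjusted p = 0.62), likewise picked afterwards.

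Of 16 extracellular partners 8 rose and 3 fell, with a median of 0.18. FN1, fibronectin, rose by 3.25, ITGB3, an integrin subunit, by 1.68, and COL4A1, a basement membrane collagen, changed by -1.01. CCN proteins share the IGFBP-type amino-terminal domain. In the list of CCN and other genes with that domain, 3 of 13 rose and 2 fell (median 0.04). CCN2, the connective tissue growth factor, rose 8.61-fold and CCN1 rose 1.74-fold, while HTRA1, a secreted protease with the domain, rose by 0.51. The list had 38.5% of its genes called, against 60% of all genes.

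The mannose 6-phosphate sorting genes, which act with IGF2R, had 9 members higher and 2 lower of 13, with a median of 0.30. AP1B1, a clathrin adaptor subunit, rose by 0.87, GGA1, another adaptor that binds the receptor tail, by 0.69, and GNPTAB, an enzyme gene of mannose 6-phosphate tagging, by 0.61. The 2 that fell were NAGPA, another enzyme gene of this tagging (-0.61), and AP1M1 (-0.20), both picked for mention once their values were known. The growth hormone axis, which controls IGF1 in liver, had 3 of 9 genes higher and 3 lower (median -0.06). STAT5B, the factor that carries growth hormone signals to IGF1, fell from 11.31 ± 0.06 to 9.18 ± 0.02 (SD, n = 3), and PRLR, the prolactin receptor gene, changed by -2.80. SOCS3, a feedback inhibitor, rose by 0.64. GHR, the growth hormone receptor gene, rose by 1.21, from 6.51 to 7.72 (adjusted p = 5.85e-05), and was picked for mention once its value was known. Over all 128 measured genes of these lists, each counted once and with the 9 genes left out, 58 rose, 29 fell and 41 did not pass. Their median was 0.10, beside -0.003 over all genes. Of these 128 genes 68% were called, against 60% of all genes (31.1% higher and 28.9% lower). The lists were chosen with earlier results of these data known. No test of the lists as sets was made.

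**Figure D4:**
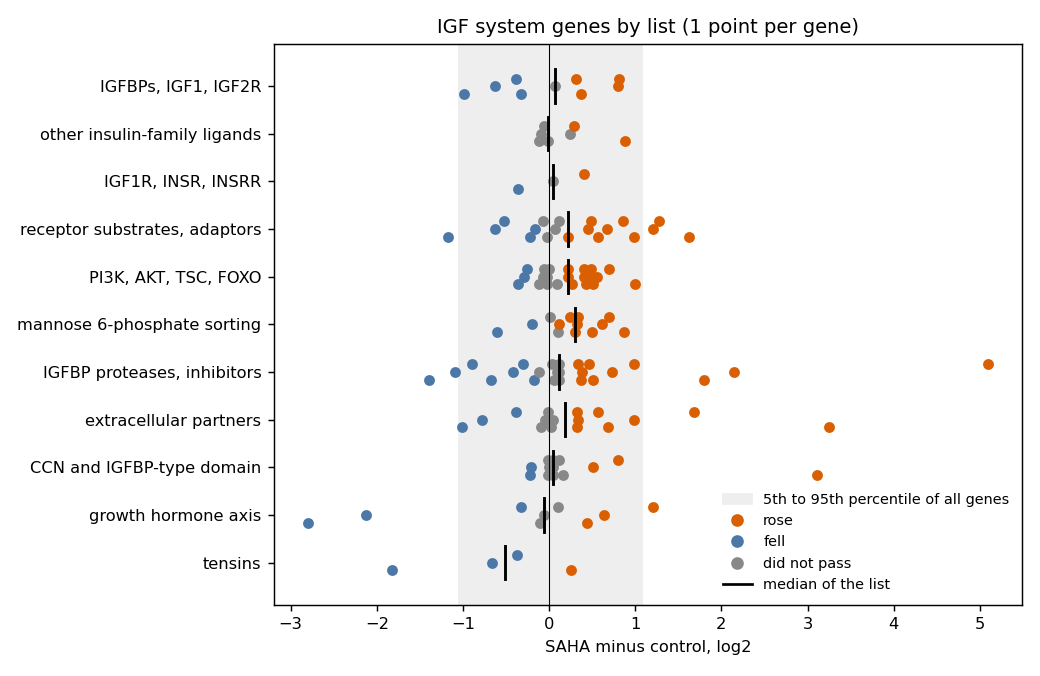
Difference between SAHA and control in log2 units for each measured gene of the IGF system (1 point per gene, coloured by the call), grouped by list with the median of each list as a black line; the grey band runs from the 5th to the 95th percentile of all genes (-1.05 to 1.08). All 9 genes of the top line lie inside the band, and MMP1, FN1 and CCN2 lie farthest to the right.

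The genes with the most similar pattern were found by the root mean square distance of log2 values over the 6 arrays, each gene centred on its own mean. IGFBP7 was closest to TFAP4, a transcription factor gene, and POLE3, a DNA polymerase epsilon subunit gene, at distances of 0.016 and 0.017. Closest to IGF2R were MGAT5, a glycosyltransferase gene (0.016), and HERC3 (0.020), a ubiquitin ligase gene. For IGFBP3 they were DHDDS, an enzyme gene of dolichol synthesis (0.018), and DNASE1L1 (0.021). With 2 groups many genes look alike: 421, 652 and 702 genes lay within 0.1 of IGFBP7, IGF2R and IGFBP3.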

How the data were processed

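Expression was measured on 6 arrays, 3 per group, grouped by the sample titles. The deposited intensity values were summarised with RMA per the submitters' processing notes, which corrects background, equalises the arrays' distributions and summarises probes per probe set. Its software version and the array's annotation are not named in the labels. They were on a linear scale (6.56 to 20338), so log2 was taken. RMA equalises the arrays, which hides any change in total RNA and can compress differences at low signal.

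Among the 33252 probe sets, 19460 were annotated to 1 gene, 1754 to several and 12038 to no gene. Entrez identifiers gave current symbols from RefSeq GRCh38.p14 (19429 matched, 31 kept), a table used besides only for gene order, since the array's build is not stated. Promoter windows and their coordinates came from a RefSeq table of that build.

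SAHA was compared with control with limma 3.58.1 in R 4.3.3 (lmFit, eBayes, two-sided, no covariates). Intervals are at 95%. On simulated arrays with 18417 genes for this comparison, 67, 67 and 66 genes were shifted by 0.5, 1 and 2 log2 units. The test found 80.6%, 97% and 100% of them and made 10 false calls, 5.13% of its calls. Far fewer genes changed there than the 60% called in the data, so these values do not carry over to the real calls.

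The members and lists were chosen with earlier results of these data known. Named were all members, from each list the 3 genes of smallest adjusted p, all genes of lists of up to 4, the nearest patterns of the 3 members that differed most, and the measured neighbours. Cell type markers were named with their values known, and other exceptions are marked. Listed genes with no probe set of their own were not analysed here.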

Additional observations from a re-analysis of the deposited data

How the results depend on the processing

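The alternatives were 12 changes of scaling, filter, probe set rule, variance model, array weights or pairing, and each of the 6 arrays left out in turn. IGFBP2, IGFBP3, IGFBP4, IGFBP7, IGFBPL1 and IGF2R kept their direction and their call in all 18. IGFBP1 lost its call in the unmoderated model (-0.33, adjusted p = 0.0706) and IGFBP5 after quantile normalization (0.19, adjusted p = 0.0555). IGF1 turned to -0.01 with housekeeping centring and to -0.01 without control replicate 3. It had no value with genes under a mean of 5 left out, and IGF1, IGFBP1 and IGFBP5 had none of their own with the filter at the median level. With that filter 3660 genes over all were called higher. It also left 5 higher receptor substrates, 0 higher ligands, 0 higher tensins, 1 lower CCN-type gene, and 1 higher and 1 lower gene of the growth hormone axis, since fewer genes were tested. The mean filter of 5 left 1 higher ligand, INSL3, since RLN2 had a mean below it. Housekeeping centring gave 2 lower ligands and 6 lower genes of PI3K, AKT, TSC and FOXO. It subtracted the median level of 8 genes on each array, which lay between the levels of SDHA and YWHAZ. Before centring these differed by 0.14 and 0.01, so the shift came mostly from SDHA, itself called higher (adjusted p = 0.0221). The median difference of all genes was then -0.080.

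With 1 array left out, differences ranged from -0.42 to -0.25 for IGFBP1, 0.27 to 0.42 for IGFBP2, 0.24 to 0.37 for IGFBP5 and -0.01 to 0.13 for IGF1, and 4 genes stayed higher and 4 lower. Higher ligands numbered 2 to 3.

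No shared deviation of same-numbered arrays was seen (r = -0.03, -0.167 and -0.004), which does not settle whether they were paired. With the replicate number as a block, 5520 genes were called higher and 5081 lower, and the calls of the 9 genes did not change (IGFBP1 adjusted p = 0.00765, IGFBP5 0.012). The block added calls for RLN1 (adjusted p = 0.012) and ADGRL3 (0.0224).

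Reversed signs among genes without a call were INSRR (-0.07, -0.0042 and -0.03), MAS1 (-0.03), SPRYD3 (0.01, but called lower at -0.15 with housekeeping centring) and SOAT2 (-0.03) under scaling, and TNP1 (range -0.10 to 0.13; reversed at 0.03, 0.03 and 0.13) and C12orf42 (range -0.05 to 0.03; reversed at 0.00035, 0.03 and 0.02) with an array left out. No member had another probe set of its own to compare. Signal over background could not be judged without detection calls.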
